A study of Mus musculus with 3 samples.

Results

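The photoreceptor phosphodiesterase PDE6 was examined through its 5 subunit genes in sorted cells of the mouse retina that are labelled as cones. The genes were taken by name: Pde6c and Pde6h encode the cone enzyme, and Pde6a, Pde6b and Pde6g the rod enzyme. They are 5 of the 31053 genes in the deposited table of counts per gene and well, and all 5 were found. A well was used if 500 or more genes were counted in it and mitochondrially encoded genes made up no more than 30% of its counts, and 183 of 208 wells passed.

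PDE6 is the effector enzyme of the light response. Light-activated opsin switches on the G protein transducin, transducin displaces the inhibitory subunits of PDE6, and the catalytic subunits then hydrolyse cyclic GMP, so that cyclic nucleotide-gated channels of the outer segment close. Rods build the catalytic core from Pde6a and Pde6b and hold it in check with Pde6g, whereas cones use a core of Pde6c alone with Pde6h as the inhibitor. Loss of rod Pde6b or cone Pde6c activity is a known cause of photoreceptor degeneration in mice.

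There were 3 mouse lines with 1 plate, and so 1 library, each. The wildtype line carried no other allele named in the labels, and its library is named Chrnb4-GFP, after a reporter that marks cones. The Cnga3-/- line lacks the cone subunit of the cyclic nucleotide-gated channel, and the Pde6ccpfl1 line carries the cpfl1 mutation of Pde6c itself. The libraries of the mutant lines are named Cnga3-GFP and Pde6c-GFP, and the labels do not state what drives GFP in them. All 3 are labelled as retina of postnatal day 12, and GFP-positive cells were sorted from papain-dissociated retina with a dye for dead cells. The names of the wells carry the tags P11 in wildtype, P08 in Cnga3-/- and P10 in Pde6ccpfl1, whose meaning is not stated. The number of animals behind each plate is not given in the labels. With 1 library per genotype there is no replicate and no test between genotypes, and plate and genotype cannot be told apart. Every interval is a 95% interval of counting error alone.

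The cone and the rod inhibitory subunits are close relatives, and the results below turn on them. Their coding sequences, read 5′ to 3′ from the GENCODE M21 transcripts of GRCm38, are shown so that the reach of the shared sequence can be seen. Capitals mark the longest run of bases that both share, 17 bases long.
Pde6h: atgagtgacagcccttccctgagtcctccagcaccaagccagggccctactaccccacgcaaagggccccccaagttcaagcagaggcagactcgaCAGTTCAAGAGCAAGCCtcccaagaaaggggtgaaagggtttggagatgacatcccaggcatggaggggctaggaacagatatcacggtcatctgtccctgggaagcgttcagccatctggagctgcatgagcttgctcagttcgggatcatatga
Pde6g: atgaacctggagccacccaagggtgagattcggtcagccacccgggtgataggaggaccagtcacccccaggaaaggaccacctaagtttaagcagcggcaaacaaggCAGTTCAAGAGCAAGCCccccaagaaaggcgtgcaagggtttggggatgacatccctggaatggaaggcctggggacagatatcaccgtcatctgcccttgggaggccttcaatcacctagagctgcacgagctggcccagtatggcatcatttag
Pde6h has 252 coding bases and 83 codons before the stop, and Pde6g 264 coding bases and 87 codons. Over 252 aligned bases 185 were identical (73.4%). The shared run spans bases 97 to 113 of Pde6h and 109 to 125 of Pde6g, counted from the first base of the start codon. Among the catalytic subunits the coding sequences of Pde6a and Pde6b were 71.6% identical, those of Pde6c and Pde6a 65.7%, and those of Pde6c and Pde6b 65.1%, with longest shared runs of 26, 24 and 23 bases. How the authors treated reads that match more than 1 gene is not given in the sources used here.

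Depth was low for single genes. The 52 wildtype wells used held 273080 counts, the 70 Cnga3-/- wells 335499 and the 61 Pde6ccpfl1 wells 295011. The median per well was 4895, 4056.5 and 3796 counts in that order, within 1061 to 16935. The 5 PDE6 genes together took 75, 167 and 135 counts, which is 0.0275%, 0.0498% and 0.0458% of each library. The cone label was checked against 9 cone genes outside PDE6. They summed to 34, 191 and 166 counts in the same order, and in wildtype the defining cone genes Opn1sw, Gnat2, Gngt2 and Cngb3 were at 0. At this depth the 9 genes did not bear out the cone label in wildtype. In Pde6ccpfl1 Cngb3 was at 0. The 11 genes listed as rod markers outside PDE6 summed to 59, 219 and 152 counts, with none at 0 in any library. They include Gnb1 (5, 46 and 29 counts) and Prph2 (2, 18 and 15), and whether each marks rods alone was not tested. Cnga3, the gene targeted in Cnga3-/-, is among the 9 cone genes and went the other way, with 22, 13 and 3 counts. It gave 22 of their 34 wildtype counts. Counts are per whole gene, so they can lie outside a deleted or mutated part and check nothing about the genotype.

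Wells at the same plate position resembled each other across the plates of different genotypes. Over 2532 genes with at least 50 counts in all, each well's profile was correlated with every well of another plate after the mean of each gene in its library was removed. At the same position the median correlation was 0.37 between wildtype and Cnga3-/- (50 shared positions), 0.34 between wildtype and Pde6ccpfl1 (43) and 0.35 between Cnga3-/- and Pde6ccpfl1 (61). At other positions the median correlation was -0.01 in each case. The best match of a well was the well at its own position in 50 of 50, 43 of 43 and 61 of 61 cases. Counts per well also followed position (Spearman rho of 0.78, 0.70 and 0.82), although no 2 wells held identical counts. These wells share the name of a plate position, and the cause was not tested. Counts that recur by position are given beside the subunits, and the ratios and sums are also given without the positions where they recur. Those positions were picked from the PDE6 counts themselves, so the values without them are a description.

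Pde6c, the cone catalytic subunit and the gene mutated in Pde6ccpfl1, was close to the limit of detection in all 3 libraries. Pde6c (GRCm38 chromosome 19, 38132781 to 38183958, plus strand) had 5 counts in the Cnga3-/- library, 2 in the Pde6ccpfl1 library and 0 in the wildtype library. The Cnga3-/- counts lay in 3 of 70 wells, and the Pde6ccpfl1 counts in 2 of 61. In wildtype 0 of 52 wells had a count. A floor of 3 wells allows a share of wells with a count of up to 5.77%, and the exact interval reaches 6.85%. The wildtype interval (0 to 13.5 CPM) overlapped that of Cnga3-/- (4.84 to 34.8 CPM), so no difference was detectable. Set against a floor of 3 counts in wildtype, the Cnga3-/- ratio was 1.36, and no fold is given for Pde6ccpfl1 over wildtype, where both were at or under the floor. The log2 ratio of Pde6ccpfl1 over Cnga3-/- was -1.14 (-4.53 to 1.47), so neither a loss nor a gain of the Pde6c transcript in its own mutant was detectable at this depth.

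Pde6h, the cone inhibitory subunit (chromosome 6, 136923832 to 136968865, plus strand), was higher in both mutant libraries than in wildtype. The wildtype library held 16 Pde6h counts, the Cnga3-/- library 56 and the Pde6ccpfl1 library 43. Scaled to the library total (CPM), these are 58.6 (33.5 to 95.1), 167 (126 to 217) and 146 (105 to 196). The intervals of the mutant libraries lay above that of wildtype and overlapped each other. A count of Pde6h was found in 9 of 52 wildtype wells (17.3%), 28 of 70 Cnga3-/- wells (40.0%) and 27 of 61 Pde6ccpfl1 wells (44.3%). On the log2 scale Pde6h was higher in Cnga3-/- than in wildtype by 1.51 (0.69 to 2.41), and in Pde6ccpfl1 by 1.31 (0.46 to 2.24). Between the mutants the log2 ratio of Pde6ccpfl1 over Cnga3-/- was -0.20 (-0.80 to 0.40).

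The single well with the most Pde6h was at the same place in each plate. Position E12 held 5, 5 and 6 of the Pde6h counts of wildtype, Cnga3-/- and Pde6ccpfl1. Besides E12, positions D08 and F05 held at least 2 counts of one subunit in every plate. Without these 3 positions Pde6h had 7, 51 and 35 counts, and the log2 ratio to wildtype was 2.54 in Cnga3-/- and 2.20 in Pde6ccpfl1. Over the 43 positions used in all 3 plates, Pde6h was higher in Cnga3-/- than in wildtype at 17 positions and lower at 5, and in Pde6ccpfl1 it was higher at 17 and lower at 6. The repeated positions were picked for counts in every plate, so the larger ratios without them are tied to that choice. At the 43 positions the log2 ratio to wildtype was 1.36 (0.50 to 2.30) in Cnga3-/- and 1.13 (0.23 to 2.09) in Pde6ccpfl1.

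Pde6g, the rod inhibitory subunit (chromosome 11, 120447605 to 120453500, minus strand), showed the widest difference among the 5. It had 1 count in wildtype, in 1 of 52 wells (1.92%). In Cnga3-/- it had 50 counts in 28 of 70 wells (40.0%), and in Pde6ccpfl1 45 counts in 24 of 61 wells (39.3%). The wildtype level was 3.66 CPM (0.093 to 20.4), the Cnga3-/- level 149 CPM (111 to 196) and the Pde6ccpfl1 level 153 CPM (111 to 204), so the mutant libraries overlapped each other and lay apart from wildtype. The log2 ratio to wildtype rests on that 1 wildtype count and was 5.35 (2.80 to 10.68) for Cnga3-/- and 5.38 (2.83 to 10.71) for Pde6ccpfl1. Between the mutants it was 0.03 (-0.58 to 0.64).

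The lone wildtype count of Pde6g lay at position D08. With 1 count, the wildtype plate cannot show whether Pde6g recurs by position, and the mutant plates alone can be compared. Of the 43 positions used in all 3 plates, Pde6g was higher than in wildtype at 16 in each mutant library and lower at 1. With 1 wildtype count, this tally restates the number of mutant wells with a count and adds nothing to the ratio. In wells from which 1400 counts each were drawn at random, 0 of 48 wildtype wells had Pde6g, for which a floor of 3 wells allows a share of up to 6.25% and the exact interval reaches 7.40%. In the same draw 16 of 65 Cnga3-/- wells (24.6%, 14.8 to 36.9) and 9 of 54 Pde6ccpfl1 wells (16.7%, 7.92 to 29.3) had a count.

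**Figure D1:**
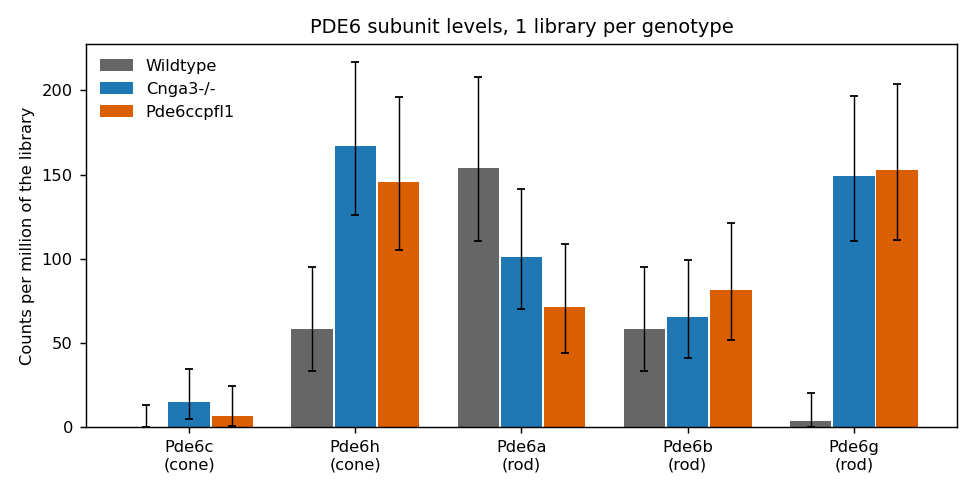
Level of each PDE6 subunit in CPM (bars) in the wildtype, Cnga3-/- and Pde6ccpfl1 libraries, with exact 95% Poisson intervals for counting error. Pde6g stood at 3.66 CPM in wildtype and at 149 and 153 CPM in the mutants, while Pde6a was highest in wildtype at 154 CPM.

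Pde6a, a rod catalytic subunit (chromosome 18, 61220315 to 61289924, plus strand), ran the other way. It had 42 counts in 23 of 52 wildtype wells (44.2%), 34 in 19 of 70 Cnga3-/- wells (27.1%) and 21 in 12 of 61 Pde6ccpfl1 wells (19.7%). Its wildtype level was 154 CPM (111 to 208), against 101 CPM (70.2 to 142) for Cnga3-/- and 71.2 CPM (44.1 to 109) for Pde6ccpfl1. Wildtype was the highest, its interval overlapped that of Cnga3-/-, and it lay just above that of Pde6ccpfl1. The log2 ratio to wildtype was -0.60 (-1.30 to 0.09) in Cnga3-/- and -1.11 (-1.94 to -0.32) in Pde6ccpfl1, and between the mutants it was -0.51 (-1.37 to 0.32).

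Pde6a counts recurred by position. Position D08 held 9, 5 and 2 of them and position F05 held 4, 8 and 4, in the order wildtype, Cnga3-/- and Pde6ccpfl1. Of the 97 counts of Pde6a, 32 (33.0%) lay at the 3 repeated positions. Without these, 29, 21 and 15 counts remained and the log2 ratio to wildtype was -0.79 in Cnga3-/- and -1.07 in Pde6ccpfl1. At the 43 positions used in all plates Pde6a was lower in Pde6ccpfl1 than in wildtype at 15 positions and higher at 4, and in Cnga3-/- it was lower at 15 and higher at 8.

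Pde6b, the other rod catalytic subunit (chromosome 5, 108388391 to 108432397, plus strand), did not differ between libraries beyond counting error over all wells used. It had 16, 22 and 24 counts, or 58.6 CPM (33.5 to 95.1), 65.6 CPM (41.1 to 99.3) and 81.4 CPM (52.1 to 121) in the order wildtype, Cnga3-/- and Pde6ccpfl1, and all 3 intervals overlapped. For Cnga3-/- over wildtype the log2 ratio was 0.16 (-0.83 to 1.19), for Pde6ccpfl1 over wildtype 0.47 (-0.50 to 1.48), and these intervals still allow a 2-fold difference in the upward direction. Position D08 held 8 of the 16 wildtype counts, 6 of the 22 in Cnga3-/- and 2 of the 24 in Pde6ccpfl1. Without the repeated positions Pde6b had a log2 ratio of 1.34 (0.12 to 2.72) in Pde6ccpfl1 over wildtype, from 22 against 8 counts. D08 was picked for its counts in every plate, so that value is tied to the choice. At the positions used in all plates the ratio was 0.63 (-0.46 to 1.77). The Pde6ccpfl1 counts lay in 19 of 61 wells (31.1%, 19.9 to 44.3). In wildtype they lay in 7 of 52 (13.5%, 5.59 to 25.8) and in Cnga3-/- in 9 of 70 (12.9%, 6.05 to 23.0). The Pde6ccpfl1 interval overlapped both others.

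**Figure D2:**
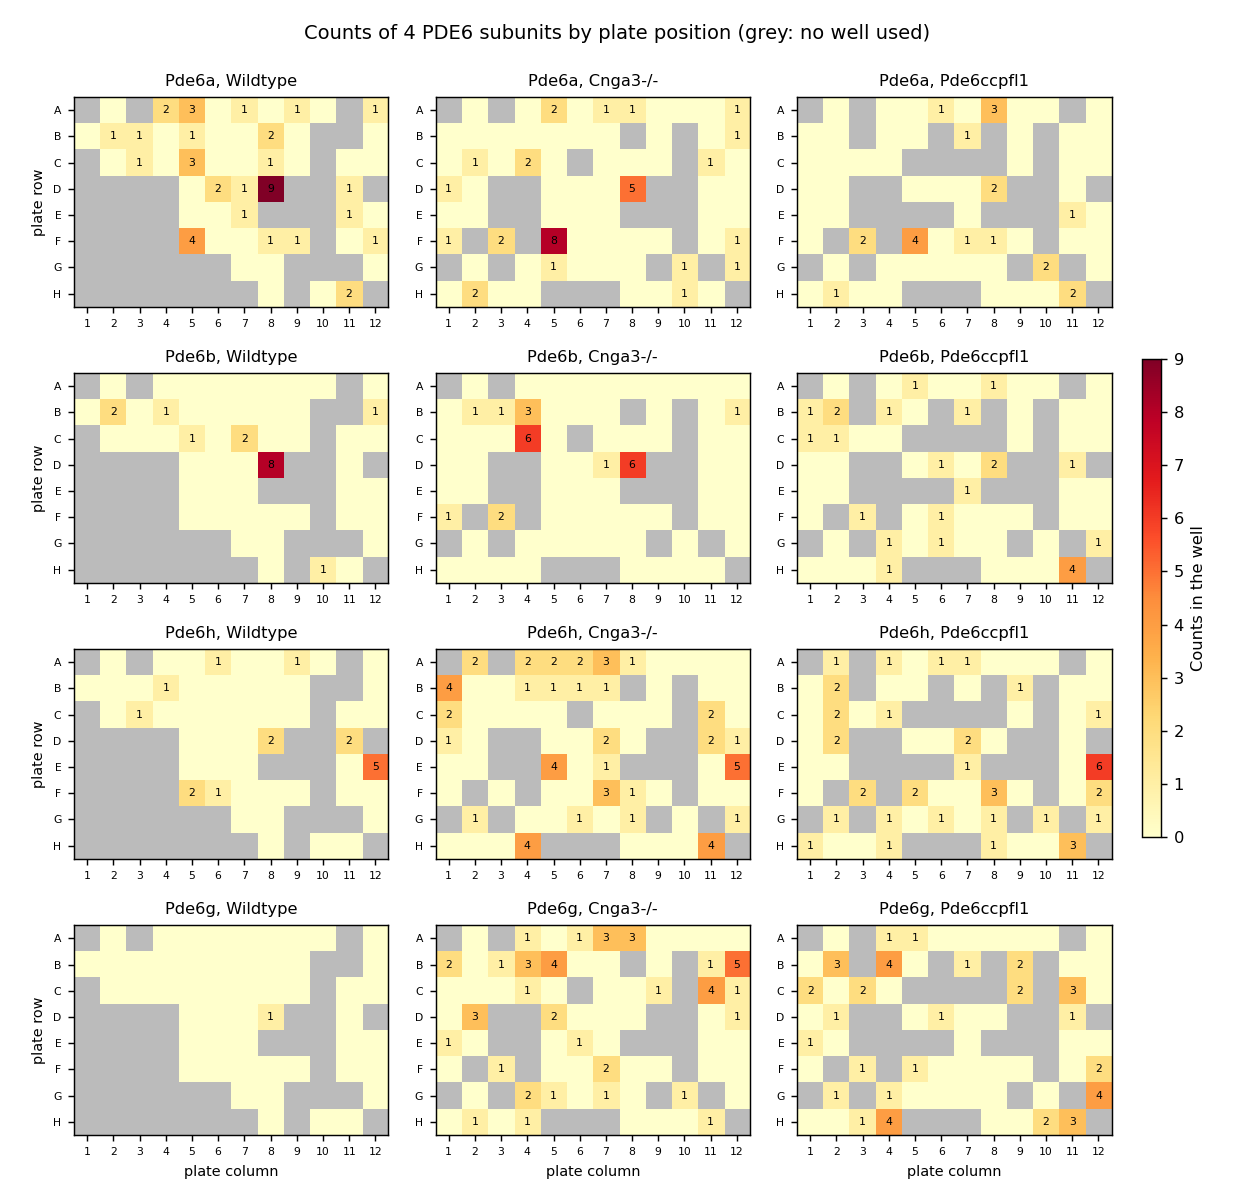
Counts of Pde6a, Pde6b, Pde6h and Pde6g (rows of panels) at each plate position in wildtype, Cnga3-/- and Pde6ccpfl1 (columns of panels), with the colour and the printed number giving counts in the well and grey marking positions with no well used. Position D08 held 9, 5 and 2 counts of Pde6a and position E12 held 5, 5 and 6 of Pde6h, while Pde6g had 1 count in the whole wildtype plate.

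The correlation of each subunit between 2 plates over shared positions was set beside that of all genes with 50 to 150 counts. Between wildtype and Cnga3-/- it was 0.45 for Pde6b, 0.32 for Pde6a and 0.18 for Pde6h, beside a median of 0.38. Between wildtype and Pde6ccpfl1 the values were 0.41, 0.27 and 0.17, beside a median of 0.37. Pde6g, with 1 wildtype count, is not read in these pairs. Between Cnga3-/- and Pde6ccpfl1, where it had 50 and 45 counts, it was 0.07 for Pde6g, 0.19 for Pde6h, 0.24 for Pde6b and 0.38 for Pde6a, beside a median of 0.39. In that last pair the cone genes Opn1sw, Gnat2 and Gngt2 stood at 0.07, -0.16 and 0.14, and Pcdhb13, a protocadherin with 22227 counts, at 0.89. These are descriptions over 50, 43 and 61 positions that share depth as well as place.

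**Figure D3:**
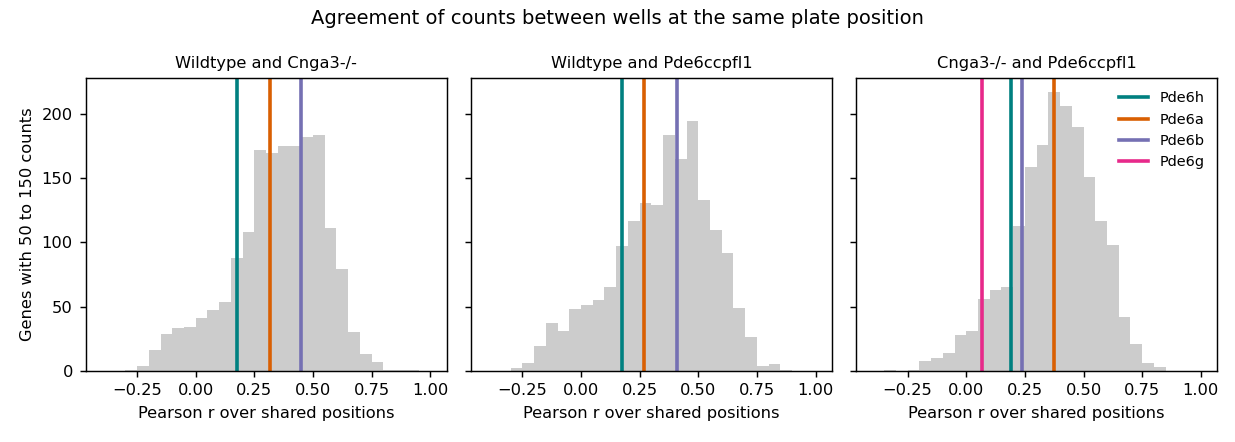
Distribution over genes with 50 to 150 counts (grey bars, number of genes) of the Pearson correlation between wells at the same position in 2 plates, with vertical lines for Pde6h, Pde6a and Pde6b and, in the pair of mutant plates, for Pde6g, which had 1 count in wildtype. In the mutant pair Pde6g lay at 0.07 and Pde6a at 0.38, and Pde6h lay at 0.17 to 0.19 in the 3 pairs.

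Summed by enzyme over all wells used, the ratios to wildtype were larger for the cone subunits than for the rod subunits. The cone sum of Pde6c and Pde6h was 16, 61 and 45 counts, which is 3.10-fold higher in Cnga3-/- than in wildtype, with a log2 ratio of 1.63 (0.82 to 2.53). In Pde6ccpfl1 it was 2.60-fold higher, with a log2 ratio of 1.38 (0.53 to 2.30). The cone sum without the repeated positions was 6.40-fold higher (2.91 to 16.6) in Cnga3-/- and 4.87-fold higher (2.14 to 12.9) in Pde6ccpfl1. The rod sum of Pde6a, Pde6b and Pde6g was 59, 106 and 90 counts, and its log2 ratio to wildtype was 0.55 (0.08 to 1.03) for the Cnga3-/- library and 0.50 (0.01 to 1.00) for the Pde6ccpfl1 library. Without the repeated positions these were 0.91 (0.34 to 1.51) and 1.01 (0.43 to 1.61). The rod sum holds subunits that went in opposite directions, and without the 5 deepest wells of each library its intervals reached below 0 (-0.07 to 0.94 and -0.16 to 0.90). Of all PDE6 counts the cone subunits made 21.3% (12.7 to 32.3), 36.5% (29.2 to 44.3) and 33.3% (25.5 to 42.0) in the same order, and these intervals overlapped. Without the repeated positions the shares were 15.9% (6.64 to 30.1), 39.2% (31.1 to 47.7) and 31.4% (23.1 to 40.5). At the positions used in all plates, which were not picked from PDE6 counts, the wildtype share was 24.6% (14.8 to 36.9). There it overlapped the Cnga3-/- share of 36.8% (28.4 to 45.9). Whether the cone sum and the rod sum differ from wildtype by different amounts was not tested.

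Summed by role in the enzyme, the inhibitory subunits were higher in both mutant libraries, and the catalytic sum did not differ beyond counting error. The catalytic sum joins unlike subunits. In Pde6ccpfl1 over wildtype the log2 ratio was -1.11 (-1.94 to -0.32) for Pde6a and 0.47 (-0.50 to 1.48) for Pde6b. The inhibitory sum of Pde6h and Pde6g was 17, 106 and 88 counts, 5.08-fold higher (3.02 to 9.04) in Cnga3-/- and 4.79-fold higher (2.83 to 8.59) in Pde6ccpfl1 than in wildtype. Without the repeated positions, where 7 wildtype counts were left, it was 11.5-fold higher (5.40 to 29.4) and 10.4-fold higher (4.81 to 26.7). The catalytic sum of Pde6c, Pde6a and Pde6b was 58, 61 and 47 counts, with a ratio to wildtype of 0.856 (0.588 to 1.25) for the Cnga3-/- library and 0.750 (0.499 to 1.12) for the Pde6ccpfl1 library. With the repeated positions left out the ratios were 0.908 and 0.970, and at the positions used in all plates that of Cnga3-/- turned to 1.03 (0.674 to 1.56). Inhibitory subunits made 22.7%, 63.5% and 65.2% of PDE6 counts in the same order. Pde6a alone made 56.0% in wildtype against 20.4% and 15.6% in the mutants, and Pde6g 1.33% against 29.9% and 33.3%.

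Read against all genes, a 2-fold difference was common in these libraries. Genes with at least 20 counts over the 2 libraries were compared, and a gene was counted when its CPM was at least 2-fold apart. Of the 4342 genes compared between Cnga3-/- and wildtype, 623 (14.3%) were higher and 553 (12.7%) lower in Cnga3-/-, and of the 5 subunits 4 were compared and Pde6h and Pde6g were higher. Between Pde6ccpfl1 and wildtype 488 of 4038 genes (12.1%) were higher and 620 (15.4%) lower, and of 4 subunits compared Pde6h and Pde6g were higher and Pde6a lower. Between the mutants 345 of 4420 genes (7.81%) were higher and 480 (10.9%) lower in Pde6ccpfl1, and 0 of 4 subunits were in either class. Pde6c had too few counts to enter. Pde6g passed the minimum only through the mutant libraries, so it had to stand apart from wildtype once it entered. The median log2 ratio of all genes compared was -0.19, -0.11 and 0.04 in the same order. The first of these moved to -0.05 with median-of-ratios factors, and with that scaling every subunit ratio to wildtype kept its direction.

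**Figure D4:**
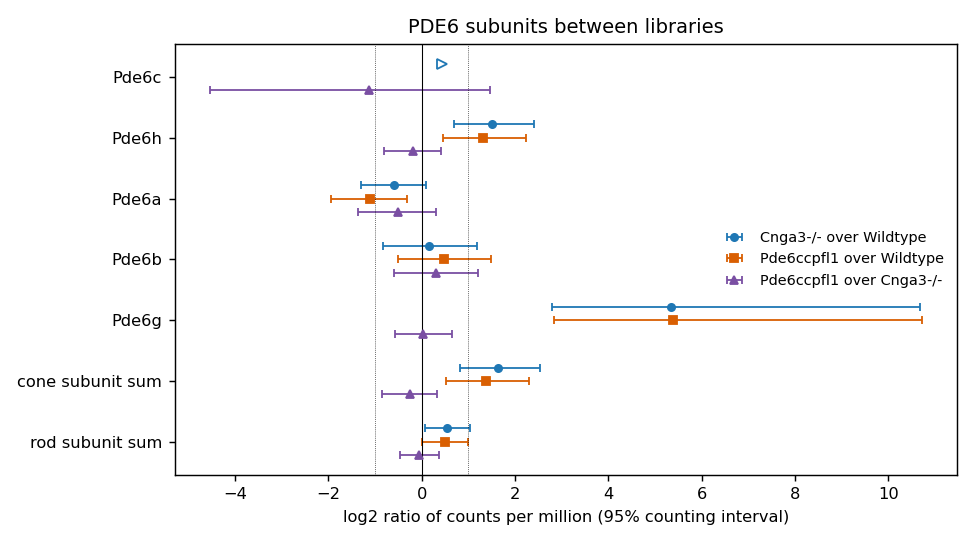
log2 ratio of CPM between libraries for each subunit and for the cone and rod sums, with 95% counting intervals (circles, Cnga3-/- over wildtype; squares, Pde6ccpfl1 over wildtype; triangles, Pde6ccpfl1 over Cnga3-/-); dotted lines mark a 2-fold difference and the open triangle is a ratio to a floor of 3 counts. Pde6g and Pde6h lay above 0 in both mutants over wildtype, and every interval between the mutants included 0.

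Single wells held few subunits at once. In wildtype 22 of 52 wells had no PDE6 count, 22 had 1 subunit, 7 had 2 and 1 had 4. In Cnga3-/- 18 of 70 wells had none, 26 had 1, 18 had 2, 7 had 3 and 1 had 4. In Pde6ccpfl1 14 of 61 had none, 21 had 1, 18 had 2, 5 had 3 and 3 had 4. No well had a count of all 5. At least 1 subunit was counted in 57.7% of wildtype, 74.3% of Cnga3-/- and 77.0% of Pde6ccpfl1 wells. With each well thinned to 1400 counts, which leaves out 4, 5 and 7 shallower wells, the shares were 18.8% (8.95 to 32.6), 55.4% (42.5 to 67.7) and 44.4% (30.9 to 58.6).

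Most wells with a PDE6 count held subunits of 1 kind, 24 in wildtype, 35 in Cnga3-/- and 29 in Pde6ccpfl1. Both kinds were counted in 6 of 52 wildtype wells, 17 of 70 Cnga3-/- wells and 18 of 61 Pde6ccpfl1 wells. Only cone subunits were counted in 3, 12 and 10 wells, and only rod subunits in 21, 23 and 19. Among wells with a cone subunit, a rod subunit was counted in 66.7% of wildtype, 58.6% of Cnga3-/- and 64.3% of Pde6ccpfl1 wells. Among wells without one it was counted in 48.8%, 56.1% and 57.6%. Wells with both were deeper, with a median of 7355.5, 6563 and 5548 counts, against 4639, 3767.5 and 1913.5 in wells with neither, and the part of depth in this was not tested. The 2 inhibitory subunits shared 12 wells in Cnga3-/- and 12 in Pde6ccpfl1, where Pde6g was counted in 42.9% and 44.4% of wells with Pde6h and in 38.1% and 35.3% of wells without it. The rod catalytic partners Pde6a and Pde6b, which form 1 core in rods, shared 3 wildtype, 5 Cnga3-/- and 5 Pde6ccpfl1 wells.

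Per kilobase of annotated exon, the subunits other than Pde6h were set in order by value, and beside genes of another tissue. In wildtype Pde6a was highest at 32.8 CPM per kilobase, followed by Pde6b at 11.7, Pde6g at 1.58 and Pde6c at 0. The interval of Pde6a (23.6 to 44.3) lay above that of Pde6b (6.66 to 18.9). Pde6b overlapped Pde6g (0.040 to 8.81), which overlapped Pde6c (0 to 4.55). In Cnga3-/- Pde6g led at 64.3, followed by Pde6a at 21.6, Pde6b at 13.0 and Pde6c at 5.02. The interval of Pde6g (47.7 to 84.8) lay above that of Pde6a (15.0 to 30.2). Pde6a overlapped Pde6b (8.18 to 19.8), which overlapped Pde6c (1.63 to 11.7). Without the repeated positions Pde6a stood at 24.3 in wildtype and 14.1 in Cnga3-/-, Pde6b at 6.25 and 10.0, and the order was the same but for wildtype Pde6g and Pde6c, both at 0. In Pde6ccpfl1 Pde6g stood at 65.8, Pde6b at 16.2, Pde6a at 15.2 and Pde6c at 2.28, and the neighbours Pde6b and Pde6a did not differ beyond counting error. Pde6h stood at 7.47, 21.3 and 18.6, but its annotated exons join long and intron-retaining transcripts to 7.85 kb, so its place in the order is not given. Olfactory receptor genes, known for their role in the sensory neurons of the nose, had 4.50, 3.61 and 4.16 CPM per kilobase over 1134 genes. The interval of Pde6c overlapped that olfactory level in every library, and so did the wildtype interval of Pde6g (0.040 to 8.81). That of wildtype Pde6h (4.27 to 12.1) did too, but this rests on the length of 7.85 kb and is not read. Of the olfactory receptor genes 1.85% in wildtype stood at or above Pde6a, and 0.882% in Cnga3-/- and 0.794% in Pde6ccpfl1 at or above Pde6g.

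**Figure D5:**
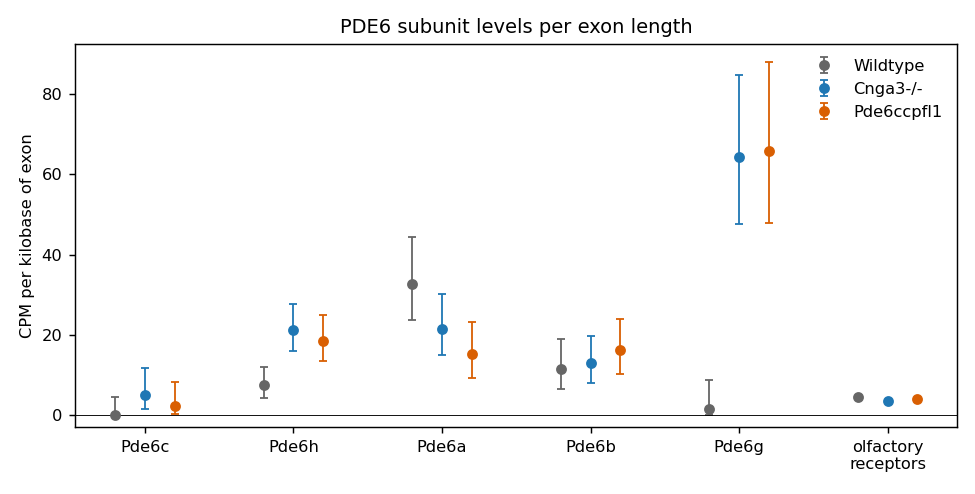
CPM per kilobase of annotated exon for each subunit and for 1134 olfactory receptor genes together, in the 3 libraries, with 95% counting intervals. Apart from Pde6h, whose exon length is uncertain, Pde6g in the mutants (64.3 and 65.8) and Pde6a in wildtype (32.8) stood highest. Pde6c and wildtype Pde6g overlapped the olfactory receptor level.

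Levels of the other retinal markers moved beside these differences. The 9 cone genes outside PDE6 stood at 125, 569 and 563 CPM in the order wildtype, Cnga3-/- and Pde6ccpfl1, and the 11 genes listed as rod markers at 216, 653 and 515. Summed, both lists were lower in wildtype, as were Pde6h and Pde6g. Cnga3 of the cone list (22, 13 and 3 counts) was highest in wildtype. Nrl of the rod list (11, 6 and 9) was too, though not beyond counting error. Pde6a was highest in wildtype, and Pde6b, at 58.6, 65.6 and 81.4 CPM, did not differ beyond counting error. Müller glia markers (8 genes) stood at 168, 113 and 98.3 CPM, bipolar markers (9 genes) at 132, 167 and 159, horizontal cell markers (6 genes) at 421, 301 and 363, and amacrine and ganglion markers (11 genes) at 161, 128 and 146. Pigment epithelium markers (7 genes) stood at 25.6, 38.7 and 57.6, and endothelium, microglia and blood markers (10 genes) at 201, 161 and 163. The part of other cells in the PDE6 differences was not tested. The libraries are labelled as single-cell, but in summed libraries fewer cells with a transcript and less of it per cell cannot be told apart.

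Among the partners of PDE6 in phototransduction, most of those compared with wildtype had enough counts only through the mutant libraries. Of 11 genes of transducin and its shut-off, 7 were compared between Cnga3-/- and wildtype, and 6 were at least 2-fold higher and 0 lower, beside 14.3% and 12.7% of all genes, with a median log2 ratio of 2.90 against -0.19 for all genes compared. Genes at 0 in wildtype enter that median at their ratio to the floor of 3 counts. Gnb1, the rod transducin beta subunit, had 5, 46 and 29 counts, and Gnat1, the rod alpha subunit, 4, 39 and 10. Gnat2 and Gngt2, the cone alpha and gamma subunits, had 0, 20 and 20 and 0, 22 and 43 counts. The 6 higher genes were these, Gnb3 and Rgs9. Each passed the minimum only through the Cnga3-/- library, and so had to stand apart from wildtype. The count and the sign of the median were thus set by the minimum. In Pde6ccpfl1 3 of 4 compared were higher (Gnb1, Gnat2 and Gngt2) and 0 lower, beside 12.1% and 15.4% of all genes, with a median of 2.53 against -0.11. These 3 entered in the same way, through the Pde6ccpfl1 library. Gnb3, the cone beta subunit, had 1, 30 and 16 counts, while Gnb5, the partner of the shut-off factor, had 25, 33 and 44 and stayed within 2-fold of wildtype in both mutants.

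Between the mutants 1 of 9 transducin genes compared was at least 2-fold higher in Pde6ccpfl1 and 2 were lower, beside 7.81% and 10.9% of all genes. Gngt2 was the higher one, with a log2 ratio of 1.15 (0.38 to 1.96). Gnat1 was lower at -1.78 (-2.95 to -0.75), and Rgs9, which speeds the shut-off of transducin and PDE6, was lower at -3.04 (-5.40 to -1.34), from 28 counts in Cnga3-/- against 3 in Pde6ccpfl1 and 0 in wildtype. The median over the 9 genes was -0.48 against 0.04 for all genes compared. None of the 4 PDE6 subunits compared was 2-fold apart between the mutants.

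Genes that fold and carry PDE6 were mostly too low to compare. Of 15 genes of assembly and transport 2 were compared in each pair of libraries. Rpgrip1, a protein of the connecting cilium, had 20, 68 and 63 counts and was higher by 1.47 (0.73 to 2.27) on the log2 scale in Cnga3-/-, and in Pde6ccpfl1 by 1.54 (0.80 to 2.35). Of all genes 14.3% and 12.1% were at least 2-fold higher in these comparisons. Icmt, which methylates prenylated proteins such as the catalytic subunits, had 24, 18 and 22 counts and was within 2-fold in each pair. The summed list was 1.81-fold higher in Cnga3-/- and 1.70-fold higher in Pde6ccpfl1 than in wildtype. Rpgrip1 carried this: the other 14 genes had 42, 70 and 51 counts, with ratios to wildtype of 1.36 (0.912 to 2.04) and 1.12 (0.732 to 1.73). Aipl1, the chaperone of PDE6, had 3, 13 and 3 counts and was not compared.

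Few of the enzymes that make cyclic GMP, or of its targets, had enough counts to compare. Of 6 genes of cyclic GMP synthesis 5 were in the table, and 1 was compared with wildtype in each mutant, Gucy2e, the retinal guanylate cyclase, with 19, 15 and 17 counts. Guca1a, its activator, had 1, 15 and 18 counts and was compared between the mutants, where it was within 2-fold. Of 6 cyclic GMP targets 2 were compared with wildtype. Cnga3, with 22, 13 and 3 counts, was at least 2-fold lower than wildtype in each mutant, beside 12.7% of all genes in Cnga3-/- and 15.4% in Pde6ccpfl1. Prkg1, a cyclic GMP-dependent kinase, had 20, 21 and 24 counts and stayed within 2-fold in each pair.

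Other cyclic nucleotide phosphodiesterases outnumbered PDE6 in each library. The 18 genes of the families outside PDE6 summed to 219, 335 and 310 counts in the same order of libraries, against 75, 167 and 135 for PDE6. Their sum was 1.25-fold higher (1.05 to 1.48) in Cnga3-/- and 1.31-fold higher (1.10 to 1.57) in Pde6ccpfl1 than in wildtype. Of 11 compared in Cnga3-/- 3 were higher and 2 lower, beside 14.3% and 12.7% of all genes. Of 10 compared in Pde6ccpfl1 4 were higher and 1 lower, beside 12.1% and 15.4%. Pde1c, a calcium- and calmodulin-activated enzyme, had 16, 72 and 64 counts, Pde4b, a cyclic AMP-specific enzyme, 5, 43 and 39, and Pde10a 11, 49 and 37, all at least 2-fold higher in both mutants. With 5 wildtype counts, Pde4b passed the minimum only through the mutant libraries, and so had to stand apart from wildtype. Pde5a, a cyclic GMP-specific enzyme close to PDE6 in kind, had 11, 24 and 25 counts, 1.78-fold higher (0.837 to 4.02) in Cnga3-/- and 2.10-fold higher (0.999 to 4.74) in Pde6ccpfl1. Pde1b (34, 18 and 21) and Pde9a (24, 11 and 22) were at least 2-fold lower in Cnga3-/-, and Pde3b (20, 16 and 7) in Pde6ccpfl1. Pde4d had 36, 34 and 32 counts and was within 2-fold in each pair. Between the mutants Pde9a was the 1 gene at least 2-fold higher in Pde6ccpfl1 and Pde3b the 1 gene lower, of 10 compared. Of all genes 7.81% were higher and 10.9% lower in that pair.

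Among genes, no other PDE6 subunit was the closest in pattern to any subunit. Over the 183 wells, with library means removed, the correlation of log2(1 + counts per 10000) was ranked over 4234 genes with at least 30 counts. For Pde6h the leading genes were Epas1 and Rbfox1 (r = 0.36 each) and Gm19345 (0.35). For Pde6a they were Slc43a1 (0.35), Kif5c (0.34) and Orc5 (0.33). For Pde6b they were Gm45609 (0.45), Tns3 (0.43) and the rod transducin Gnat1 (0.40), and for Pde6g Plekhb2 (0.30), the olfactory receptor Olfr432 (0.29) and Arhgef5 (0.27). Between subunits the correlations ran from -0.06 for Pde6h with Pde6b to 0.19 for Pde6a with Pde6b and for Pde6b with Pde6g. The wells share libraries, depth and plate position, and at counts this sparse such correlations describe these wells only.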

How the data were processed

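The table deposited by the authors gives unnormalized read counts for each gene in each well. The submitters' processing notes name featureCounts (no version given) and GRCh38, a human build. The gene symbols are those of the mouse, and 30464 of 31053 of them are in GENCODE M21 (GRCm38), which gave the coordinates, exon lengths and coding sequences here. The aligner and the use of molecular identifiers are not given in the sources used here, so counts may not be independent molecules.

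Wells were matched to libraries by column name, summed over used wells and scaled to CPM. No doublet caller was run. Depth was 273080 to 335499 counts per library, so that 3 counts, the floor, correspond to 8.94 to 11.0 CPM. Levels have exact Poisson intervals, shares exact Clopper-Pearson intervals, and log2 ratios exact intervals conditional on the total. A library at 0 was set to the floor, and the ratio is then to that floor. No p-value was computed. Scripts (Python 3.11.15, scipy 1.17.1, biopython 1.88) were tested on simulated data. The alternatives were other filters and scalings (TMM from edgeR 4.0.16), thinning, deep or leading wells left out and, added after the data were seen, plate positions left out.

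The named genes were the subunits, the 2 members of each list with the most counts, those at least 2-fold apart with at least 20 counts, and the 3 genes most like each subunit. Aipl1, the genes used to check plate positions and the marker genes at 0 were chosen after their values were seen. The members and lists were chosen with earlier results of these data known.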

Additional observations from a re-analysis of the deposited data

Results flagged for a closer look

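Wells that were left out for few genes or many mitochondrial counts also held PDE6 counts. The 10 Pde6ccpfl1 wells left out had 11 counts of the 5 subunits among 8245 (Pde6c 2, Pde6h 4, Pde6a 1, Pde6b 1 and Pde6g 3), or 1334 CPM, and the 9 wildtype wells left out had 3 among 7174, or 418 CPM. In the 6 Cnga3-/- wells left out there were 3 among 4749 counts. The 2 Pde6c counts there equal the number in the 61 Pde6ccpfl1 wells that were used.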

How the results depend on the processing

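No paired analysis was possible because each genotype has 1 library. Under every setting tried, the ratios to wildtype of Pde6h, Pde6g, Pde6a and both sums kept their direction. Ratios near 0 did not: Pde6b of Cnga3-/- over wildtype was -0.07 without the 5 deepest wells, and Pde6g of Pde6ccpfl1 over Cnga3-/- was -1.02 with thinned wells. Without the 3 repeated positions, the log2 ratio of the cone sum of Cnga3-/- over wildtype was 2.68 and that of the rod sum of Pde6ccpfl1 over wildtype 1.01. With wells thinned to 1400 counts, the rod sum of Cnga3-/- over wildtype was 1.23, and wells with any subunit made 18.8% in wildtype, 55.4% in Cnga3-/- and 44.4% in Pde6ccpfl1. In that setting Pde6h of Pde6ccpfl1 over wildtype was 0.83 (-0.85 to 2.73) and Pde6a was -0.63 (-2.15 to 0.82), so both intervals included 0. Numbers of genes at least 2-fold apart followed the minimum count, since other genes then enter. At 10 counts, 1248 genes were higher and 1166 lower in Cnga3-/- than in wildtype, 1130 and 1238 in Pde6ccpfl1 than in wildtype, and 795 and 1111 in Pde6ccpfl1 than in Cnga3-/-. At 50 counts and a count in 20% of wells, they were 193 and 202, 163 and 244, and 109 and 158. Thinning took the Pde6b ratio to wildtype to 1.56 in Cnga3-/- and 2.42 in Pde6ccpfl1, from 1 wildtype count, and left Pde6g, with wildtype set to the floor, at 2.44 and 1.42. Over all wells used, counting error allowed a 2-fold difference of Pde6c and of Pde6b between libraries. It also allowed one of Pde6a between Cnga3-/- and wildtype and between the mutants.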
